A study of Mus musculus with 6 samples.

Results

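The genes described here are 43 genes of histone methylation and of the Polycomb complexes, chosen by name as enzymes that add methyl groups to histone lysines (writers), enzymes that remove them (erasers) and subunits of the Polycomb repressive complexes PRC1 and PRC2. They were found by gene symbol, or by an older name of the same gene, among 19057 genes with a named probe, and measured in mouse head ectoderm in which both CBP and p300 were deleted. Of the 43 genes, 41 had a named probe, with 97 probes between them, and 38 had a probe that was detected often enough to be tested, against 10123 tested genes in all. No named probe was found for Suv39h1 or Ash1l. Cbx7, Cbx8 and Dot1l had a single probe each, and none of these probes was detected on more than 1 of the 6 arrays.

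The tissue was laser microdissected at E10.5 from CBP/p300 fl/fl embryos carrying a Pax6-Cre transgene (DCKO, 3 arrays) and from CBP/p300 fl/fl embryos without Cre, labelled wild type (WT, 3 arrays), all on a mixed (FVB; 129) background. Pax6-Cre was designed to act in the lens and corneal precursors of the head ectoderm. The paper reports its reporter activity in the lens vesicle at E10.5. Later it was also found in conjunctival, eyelid and facial epidermal cells and in scattered retinal cells. Cells caught in a section that Cre did not reach would keep both genes. The labels name the DCKO tissue surface ectoderm and the WT tissue lens placode. They also state that RNA of each genotype was pooled before 3 amplifications, whereas the methods speak of separate embryos. If the pool is the source, p-values measure only the technical spread between arrays of 1 genotype.

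The 6 arrays shared 1 chip, and each detected between 18081 and 19769 of 45281 probes. Across tested probes the correlation between arrays was 0.878 to 0.883 within DCKO, 0.930 to 0.934 within WT and 0.837 to 0.857 between genotypes, so the DCKO arrays were the more scattered. The deleted genes were read in every array first. Ep300, which encodes p300, had a probe at 4.92, 4.67 and 5.26 in DCKO and 6.59, 7.24 and 7.02 in WT on the log2 scale, not detected on any DCKO array and at least 2.87-fold higher in WT (limma adjusted p = 0.0159, and 0.0246 with no detection filter). Such a bound sets the detected mean against the lowest detected level of the arrays that missed the probe. Without WT replicate 2 or 3 the probe missed the threshold (adjusted p = 0.0705 and 0.0776). A second Ep300 probe was at 5.20, 5.29 and 5.07 in DCKO and 6.38, 7.03 and 6.07 in WT, also not detected on any DCKO array and at least 2.09-fold higher in WT (adjusted p = 0.0632). Both of these Ep300 probes entered the test through the WT arrays alone, so their p-values support nothing by themselves. The brightest Ep300 probe was at 7.10, 7.25 and 7.54 in DCKO and 8.15, 7.78 and 6.05 in WT, and the fourth was at 5.33, 5.79 and 6.24 in DCKO and 5.57, 5.50 and 6.86 in WT, with overlap in both. Crebbp, which encodes CBP, was at 7.33, 7.52 and 6.61 in DCKO and 7.80, 7.75 and 8.19 in WT at its brightest probe, a difference of -0.76 that did not pass the test (adjusted p = 0.233). Its other probes were at 7.36, 7.50 and 6.86 in DCKO and 7.70, 7.71 and 8.00 in WT, and at 6.12, 6.02 and 5.89 in DCKO and 5.82, 6.46 and 6.05 in WT. Where these probes lie relative to the floxed exons is not given in the sources used here, so a probe outside the deleted part would check nothing.

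Of 8 tested lens genes, all 8 were lower in DCKO by the test, among them Cryaa, Crybb3 and Crygd, which were not detected on any DCKO array. The summed level of the 8 was 590.0 to 716 intensity units in DCKO and 16236 to 17854 in WT. Of 10 tested surface ectoderm and epidermal genes 4 were called higher in DCKO, with a summed level of 12076 to 14886 in DCKO and 8048 to 9204 in WT. At an unadjusted limma p under 0.05, 8 of these genes were higher and 1 was lower, with a difference of -0.82 and no overlap. Of 7 tested macrophage genes 4 were called lower, with a summed level of 231 to 338 in DCKO and 2186 to 3086 in WT. Of 3 tested periocular mesenchyme genes 1 was called higher and 1 lower (summed level 562 to 1022 in DCKO and 4321 to 4740 in WT). That sum rests on Pdgfra, with a difference of -3.60, whereas Foxc1 and Prrx1 lay higher in DCKO without overlap. Of 3 neuronal genes 1 was called higher and 1 had a difference of -0.63, and of 4 erythroid genes 1 was called lower. None of 2 endothelial and 2 optic vesicle genes was called (limma), with 1 lower in each list at an unadjusted p under 0.05. Cryaa, Crybb3, Crygd, Aif1, Mpeg1 and Tek entered the test through the WT arrays alone. Ovol1, Prrx1 and Neurog2 entered it through the DCKO arrays alone. A call of any of these genes therefore supports nothing by itself. The part of these cell type markers in the results was not tested, and in bulk RNA a change in the share of a cell type and a change of RNA per cell cannot be told apart.

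Methyl groups on histone tails act mainly through the proteins that read them. PRC2 methylates lysine 27 of histone H3, a mark of silenced developmental genes, and PRC1 binds that mark and ubiquitinates histone H2A. Methylation of H3 lysine 4 by the COMPASS family of complexes marks active promoters and enhancers, methylation of H3 lysine 9 marks heterochromatin, and methylation of H3 lysine 36 accompanies transcription. CBP and p300 acetylate histones, including the same H3 lysine 27 that PRC2 methylates.

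Few histone methylation and Polycomb genes passed the test between DCKO and WT tissue. By its brightest tested probe, 1 of the 38 genes passed the test, Ash2l, which was higher in DCKO, and none was lower. Across all tested genes 4.88% were called, 2.1% higher and 2.78% lower, so 1 of 38, or 2.63%, did not exceed that background. The median log2 difference was 0.11 for the 38 genes and 0.01 for all tested genes, and the median absolute difference was 0.33 for the 38 genes and 0.41 for all tested genes. At an unadjusted limma p under 0.05, 4 of the 38 members were higher and 2 were lower, while 21.2% of all tested genes passed that threshold, 10.6% (1076 genes) higher and 1066 genes lower, so the members did not exceed that background in either direction. Values of the 2 genotypes did not overlap for 10 of the 38 members, 5 in each direction, and did not overlap for 29.1% of all tested genes. A log2 difference of at least 1 was found in 3 members (Ash2l, Kdm3a and Kdm5b) and in 17.2% of all tested genes. The 95% interval of the difference lay within -1 to 1 on the log2 scale for 16 members, and for the others the interval reached past that size in at least 1 direction. Within an array, the bead standard error of member probes was 1.64% to 6.37% of the signal over 23 to 70 beads.

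**Figure D1:**
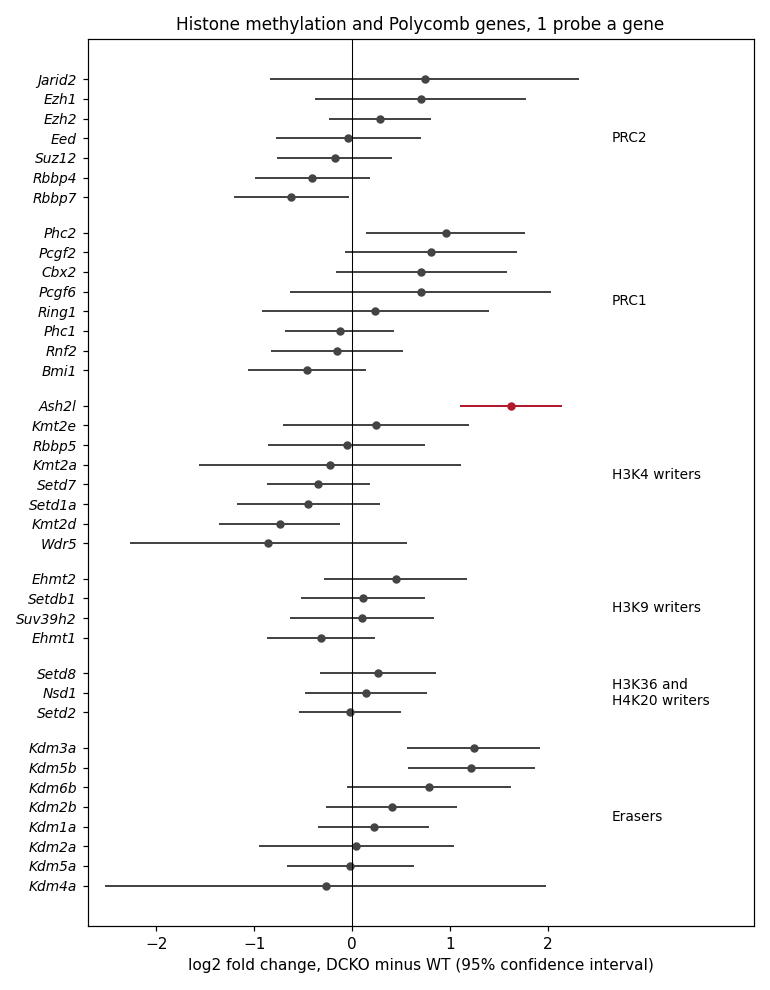
Log2 difference (DCKO minus WT, x axis) of the 38 tested members by their brightest tested probe, grouped by role, with points for the fitted difference and bars for its 95% confidence interval. Ash2l, in red, is the only gene that passed the test, Kdm3a and Kdm5b follow at 1.24 and 1.22, and Kdm4a has the widest interval.

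Ash2l encodes a core subunit that the H3 lysine 4 methyltransferase complexes share with Wdr5 and Rbbp5 (chr8:25816000-25847694, GRCm38.p6). Its brightest probe was at 10.31, 10.16 and 10.15 in DCKO and 8.71, 8.64 and 8.40 in WT on the log2 scale, so every DCKO array lay more than 1 log2 unit above every WT array. The deposited intensities of this probe were 1674, 1180 and 1486 in DCKO and 572, 525 and 499 in WT. The fitted difference was 1.63 with a standard error of 0.21, a 3.09-fold higher level (95% interval 2.16 to 4.40, limma adjusted p = 0.0131). A second Ash2l probe, to the same transcript, did not show it, at 7.30, 7.29 and 6.55 in DCKO and 7.61, 6.30 and 6.77 in WT, a difference of 0.15 with an interval of -0.82 to 1.13. The third Ash2l probe was detected on 1 array only. Without any single WT array the brightest probe missed the threshold, with adjusted p from 0.0583 to 0.0687 and differences of 1.53 to 1.69, and when the tested probes of a gene were averaged no member was called.

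The remaining 7 tested genes listed with the H3 lysine 4 writers and subunits did not pass the test. Kmt2d, the main enhancer H3 lysine 4 monomethyltransferase together with Kmt2c, was at 10.25, 10.31 and 9.67 in DCKO and 10.82, 10.78 and 10.85 in WT, with no overlap and a difference of -0.74 (interval -1.34 to -0.14, adjusted p = 0.163). Wdr5, another shared core subunit, differed by -0.86, but the DCKO arrays spread over 9.50, 7.49 and 9.72, against 9.81, 9.74 and 9.73 in WT, and the interval was -2.26 to 0.55. Rbbp5, another core subunit, differed by -0.06 (interval -0.84 to 0.73). Neither Wdr5 nor Rbbp5 passed the test in the direction of Ash2l. Setd7, an H3 lysine 4 monomethyltransferase, differed by -0.35 with no overlap (interval -0.86 to 0.17). Setd1a, the catalytic subunit of a COMPASS complex, differed by -0.45 (interval -1.16 to 0.27). Kmt2a, the methyltransferase MLL that maintains Hox expression, differed by -0.23 (interval -1.56 to 1.10), and Kmt2e, a related SET-domain protein, by 0.24 (interval -0.69 to 1.18). The median difference over the 8 genes was -0.29.

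Among the 8 erasers, none passed the test (limma), while 2 were higher at an unadjusted p under 0.05, a threshold that 10.6% of all tested genes passed in that direction. The summed level of the 8 was 4978 to 5406 intensity units in DCKO and 3285 to 3599 in WT, and their median log2 difference was 0.31. Most of the gap came from that pair, and the summed level of the other 6 was 2624 to 2906 in DCKO and 2261 to 2571 in WT. The pair was Kdm3a, which removes mono- and dimethylation of H3 lysine 9, and Kdm5b, which removes methylation of H3 lysine 4. A summed level higher in DCKO without overlap was not particular to the erasers. It was 5162 to 6078 in DCKO and 4631 to 5129 in WT for PRC1, and 1409 to 1625 and 1289 to 1386 for the H3 lysine 9 writers. For the H3 lysine 4 genes it was lower without overlap (5578 to 5912 in DCKO and 6198 to 6436 in WT). The sums of the remaining roles overlapped. Kdm5b was at 10.94, 10.92 and 10.88 in DCKO and 9.30, 10.10 and 9.67 in WT. The DCKO arrays nearly coincided and all lay above the WT arrays, with a difference of 1.22 and a standard error of 0.27 (interval 0.58 to 1.86, adjusted p = 0.057). Both of its other probes lay higher in DCKO without overlap. The second was at 10.33, 9.85 and 9.91 in DCKO and 8.62, 9.44 and 9.18 in WT, and the third, to a cDNA clone, was at 9.42, 9.51 and 9.92 in DCKO and 9.22, 8.95 and 8.98 in WT, with differences of 0.95 and 0.57.

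Kdm3a was at 9.34, 9.14 and 8.57 in DCKO and 7.88, 7.89 and 7.55 in WT, a difference of 1.24 with a standard error of 0.28 (interval 0.57 to 1.91, adjusted p = 0.0614). The genotypes did not overlap. A second probe to the same transcript gave 9.14, 9.29 and 8.49 in DCKO and 8.31, 7.42 and 7.44 in WT, a difference of 1.25 (adjusted p = 0.111). Another gave 6.36, 6.89 and 6.23 in DCKO and 5.69, 6.19 and 5.43 in WT, a difference of 0.72. The probe to a separate cDNA clone went the other way, at 7.04, 7.82 and 6.99 in DCKO and 6.73, 8.18 and 7.53 in WT, with overlap and a difference of -0.20. Kdm5b was called when only probes detected at p under 0.01 were tested (adjusted p = 0.0484) and with trend and robust moderation (adjusted p = 0.0133). Both Kdm5b and Kdm3a were called when the background was left uncorrected or modelled on all probes, with adjusted p from 0.0201 to 0.0473. Of 14 alternative settings, Kdm5b was called in 4 and Kdm3a in 2. Neither was called in any of the 6 fits that left out an array. The limma adjusted p reached 0.174 for Kdm5b and 0.195 for Kdm3a.

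**Figure D2:**
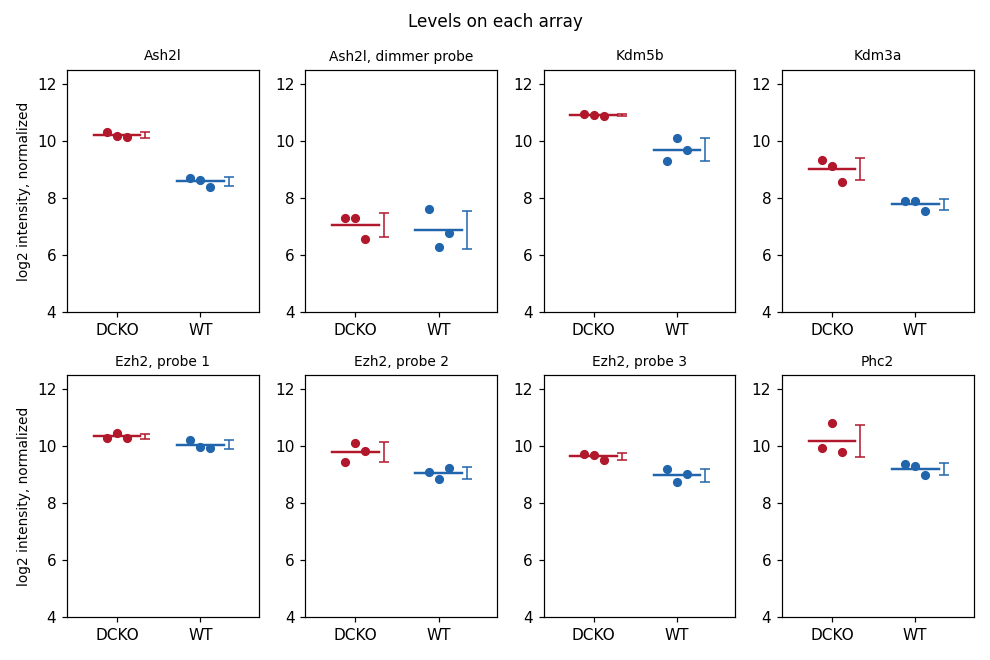
Normalized log2 intensity (y axis) of 8 probes on each array, DCKO left in red and WT right in blue, with points for arrays, a line for the mean and a bar for 1 SD (n = 3). Ash2l, Kdm5b, Kdm3a, the 3 Ezh2 probes and Phc2 show no overlap between genotypes, whereas the dimmer Ash2l probe overlaps.

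The sequences before the transcription start of Kdm3a, Kdm5b and Ezh2 are shown because these 3 genes had several probes that lay higher in DCKO with no overlap. Each run spans 250 bases before to 50 after a RefSeq transcript start on GRCm38.p6, taken from a table that held a promoter for 35 of the 43 members. Capitals mark every match on either strand to TGACGTCA and its short form TGACG, which are cAMP response elements bound by CREB, the factor for which CBP is named, to the hypoxia element core ACGTG, to the Sp1 box GGGCGG and to the E2F elements TTTCGCGC and TTTGGCGC. TGACG and ACGTG overlap in Kdm5b.
Kdm3a, chr6:71632868-71633167, minus strand: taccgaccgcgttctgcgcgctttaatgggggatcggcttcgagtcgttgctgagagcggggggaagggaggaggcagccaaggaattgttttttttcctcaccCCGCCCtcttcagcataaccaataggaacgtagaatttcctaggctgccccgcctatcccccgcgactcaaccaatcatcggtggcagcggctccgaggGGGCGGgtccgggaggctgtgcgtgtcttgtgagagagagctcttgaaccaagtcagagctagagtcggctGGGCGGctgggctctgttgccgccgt
Kdm5b, chr1:134559928-134560227, plus strand: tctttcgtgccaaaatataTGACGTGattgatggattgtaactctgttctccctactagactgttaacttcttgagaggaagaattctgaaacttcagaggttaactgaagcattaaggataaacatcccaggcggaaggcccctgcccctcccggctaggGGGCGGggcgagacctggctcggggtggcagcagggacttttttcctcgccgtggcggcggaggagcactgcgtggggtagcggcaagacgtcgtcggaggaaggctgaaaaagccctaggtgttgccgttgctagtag
Ezh2, chr6:47594981-47595280, minus strand: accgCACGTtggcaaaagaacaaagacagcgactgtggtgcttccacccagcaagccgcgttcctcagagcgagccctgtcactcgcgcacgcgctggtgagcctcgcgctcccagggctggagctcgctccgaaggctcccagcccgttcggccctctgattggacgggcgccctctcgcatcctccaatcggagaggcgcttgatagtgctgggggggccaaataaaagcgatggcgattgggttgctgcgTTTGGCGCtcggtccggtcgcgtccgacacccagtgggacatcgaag
No window held the full TGACGTCA, which 1.79% of 32851 promoters of the same length hold. Kdm5b held TGACG and ACGTG, found in 20.8% and 19.6% of all promoters, and 1 GGGCGG, found in 35.7%. Kdm3a held 3 GGGCGG boxes. Its window is that of the outermost of 3 starts in the promoter table, which lies 73 bases inside the end of the gene record. The Ezh2 start lies 240 bases inside. For a transcript that begins further out, the sequence before its start is therefore covered only in part. Ezh2 held ACGTG and, beginning 3 bases after the transcription start, TTTGGCGC, which 0.514% of promoters hold. TTTCGCGC, found in 0.323%, was in none of the 3 windows. A match is a description of letters and not of binding.

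The remaining erasers showed no difference past the test. Kdm6b, which removes methylation of H3 lysine 27, was at 7.25, 7.17 and 6.43 in DCKO and 6.63, 6.10 and 5.75 in WT, overlapping at a single DCKO array, with a difference of 0.79 (interval -0.04 to 1.62, adjusted p = 0.265). Kdm2b, an H3 lysine 36 demethylase that also brings a form of PRC1 to CpG islands, differed by 0.40 (interval -0.25 to 1.06) at its brightest probe, which was at 9.21, 9.03 and 9.37 in DCKO and 8.77, 9.20 and 8.42 in WT. Its other tested probes differed by 1.00 and -0.31, at 8.08, 7.77 and 7.04 in DCKO and 5.94, 7.31 and 6.64 in WT for the first, and at 5.53, 5.64 and 7.90 in DCKO and 6.96, 6.13 and 6.93 in WT for the second. Both overlapped between genotypes. Kdm5a, the close relative of Kdm5b, was at 8.98, 9.26 and 9.62 in DCKO and 9.57, 9.11 and 9.23 in WT, a difference of -0.02 with an interval of -0.66 to 0.62. A dimmer Kdm5a probe lay lower in DCKO without overlap, at 6.48, 7.37 and 5.46 in DCKO and 7.83, 7.90 and 7.38 in WT (difference -1.27, adjusted p = 0.21), while the others differed by -0.25 each. Kdm1a, the H3 lysine 4 demethylase LSD1, differed by 0.22 (interval -0.34 to 0.78) and Kdm2a, an H3 lysine 36 demethylase, by 0.04 (interval -0.94 to 1.03). Kdm4a, which acts on trimethylated H3 lysines 9 and 36, differed by -0.27 with an interval of -2.51 to 1.97. The other tested Kdm4a probe differed by 0.73 (interval -1.84 to 3.29). Each of these probes was detected on 1 DCKO array and on 2 WT arrays.

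No PRC2 gene passed the test (limma) by its brightest probe, and of the 7 only Rbbp7 did so at an unadjusted p under 0.05. Ezh2, the main H3 lysine 27 methyltransferase of dividing cells, lay higher in DCKO without overlap at all 3 probes, though none passed the test. The brightest was at 10.28, 10.45 and 10.30 in DCKO and 10.22, 9.99 and 9.95 in WT, the second at 9.44, 10.11 and 9.84 in DCKO and 9.11, 8.84 and 9.23 in WT, and the third at 9.72, 9.71 and 9.51 in DCKO and 9.20, 8.75 and 9.02 in WT. The differences were 0.29, 0.74 and 0.66, or 1.22- to 1.67-fold, with intervals of -0.22 to 0.80, 0.11 to 1.37 and 0.11 to 1.20 and adjusted p of 0.509, 0.177 and 0.169. Ezh1, the second such enzyme, was at 7.16, 5.90 and 6.99 in DCKO and 5.33, 6.26 and 6.36 in WT, overlapping, with a difference of 0.70 (interval -0.36 to 1.76, adjusted p = 0.438). Cell cycle genes were read beside Ezh2, since Ezh2 is known to follow proliferation. None of 18 tested was called (limma), and 1 was higher and 1 was lower at an unadjusted p under 0.05. Their median difference was 0.16, with 13 above 0 and 5 below. Their summed level, which bright probes weigh most, was 35498 to 38506 intensity units in DCKO and 29455 to 31344 in WT. The paper reports fewer BrdU-labelled cells in the double mutant ectoderm at the same stage than in double heterozygous controls. The part of the cell cycle genes in the Ezh2 difference was not tested.

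The other PRC2 subunits showed no common direction. Suz12, the scaffold, differed by -0.18 (interval -0.76 to 0.40), and Eed, which reads methylated H3 lysine 27, by -0.04 (interval -0.77 to 0.69). Rbbp7, a histone-binding subunit shared with deacetylase complexes, was at 9.20, 9.28 and 8.78 in DCKO and 9.58, 9.88 and 9.66 in WT, a difference of -0.62 with no overlap (interval -1.20 to -0.04, adjusted p = 0.214). Its next 2 probes by brightness also lay lower without overlap, with differences of -0.59 and -0.66. Jarid2, an accessory subunit that helps place PRC2, had a pair of tested probes of opposite sign. The brighter was at 6.56, 7.51 and 7.25 in DCKO and 7.79, 5.25 and 6.05 in WT (difference 0.74, interval -0.83 to 2.31). The dimmer, to a cDNA clone, was at 6.78, 5.11 and 5.13 in DCKO and 6.27, 6.87 and 6.61 in WT (difference -0.91).

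Rbbp4, the paralogue of Rbbp7, gave a different answer at each of its 4 tested probes, all assigned to the same transcript (chr4:129307100-129335370, GRCm38.p6). The brightest was at 10.73, 10.34 and 10.25 in DCKO and 11.02, 10.69 and 10.83 in WT, overlapping, with a difference of -0.41 (interval -0.98 to 0.17). A dimmer probe was at 8.86, 7.13 and 7.15 in DCKO and 4.80, 4.88 and 4.81 in WT, detected on all 3 DCKO arrays and on no WT array, which made it at least 4.84-fold higher in DCKO (limma adjusted p = 0.0289). It entered the test through the DCKO arrays alone, as did 1 probe each of Suv39h2 and Phc1 among the 76 tested member probes, so its p supports nothing by itself, and with no detection filter it was not called (adjusted p = 0.0667). With that of Ash2l, 2 of the 76 member probes were called, and 4.58% of all tested probes were. Another probe was at 7.10, 5.84 and 8.10 in DCKO and 5.54, 6.62 and 6.62 in WT (difference 0.75). The dimmest was at 4.74, 5.71 and 4.99 in DCKO and 6.38, 5.71 and 6.36 in WT (difference -1.002, adjusted p = 0.167). The call of the dimmer probe was lost without any single WT array (adjusted p = 0.102 to 0.109) and without background correction (0.0656).

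**Figure D3:**
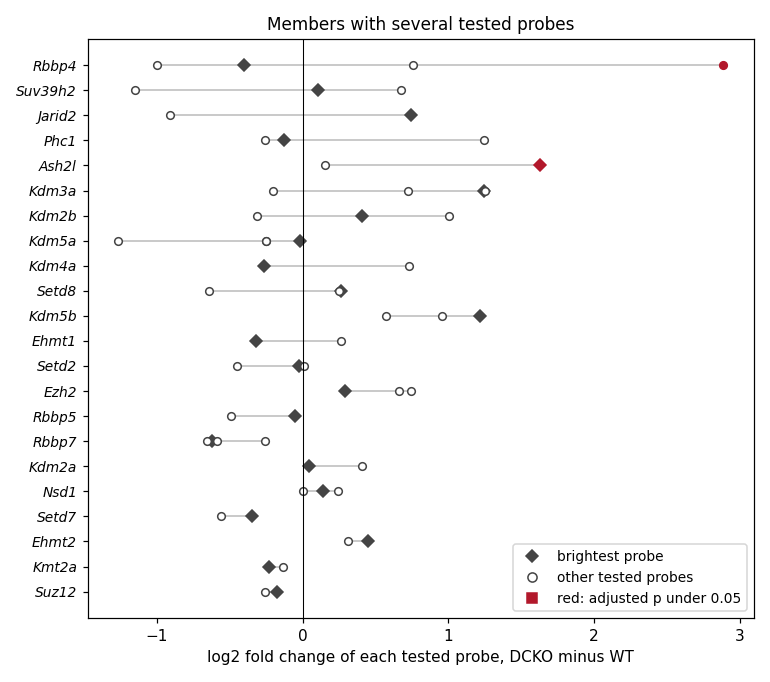
Log2 difference (DCKO minus WT, x axis) of every tested probe of the 22 members with several, ordered by the spread between probes, with a diamond for the brightest probe, open circles for the others and red for a probe that passed the test. Rbbp4 spans -1.002 to 2.88, and the 3 Ezh2 probes and the 3 Kdm5b probes all lie above 0.

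Probes of the same gene often disagreed. Of 22 members with several tested probes, 12 had all probes on the same side of 0, and 8 had probes that differed by at least 1 on the log2 scale (Rbbp4, Suv39h2, Jarid2, Phc1, Ash2l, Kdm3a, Kdm2b and Kdm5a). Where in each transcript the probes bind was not analysed here.

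PRC1 genes gave no call (limma), and 1 of 8 was higher at an unadjusted p under 0.05, which 10.6% of all tested genes were. That gene was Phc2, a polyhomeotic subunit that polymerizes PRC1, at 9.92, 10.82 and 9.78 in DCKO and 9.37, 9.30 and 8.98 in WT, without overlap. Its difference was 0.96 with a standard error of 0.34, 1.94-fold (interval 0.16 to 1.76 on the log2 scale, adjusted p = 0.171). Phc1, its paralogue, differed by -0.13 (interval -0.68 to 0.42) at the brightest probe, which was at 10.495, 10.60 and 10.81 in DCKO and 10.86, 10.52 and 10.90 in WT. The second Phc1 probe was at 9.89, 9.81 and 9.51 in DCKO and 10.27, 10.12 and 9.60 in WT. The third was at 5.59, 7.68 and 5.51 in DCKO and 4.66, 5.22 and 5.17 in WT, not detected on any WT array and at least 1.77-fold higher in DCKO (adjusted p = 0.309). That value rested on 1 bright DCKO array.

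The PCGF subunits, which define the forms of PRC1, differed in sign, and none passed the test. Pcgf2 differed by 0.80 (interval -0.06 to 1.67), Pcgf6 by 0.70 (interval -0.62 to 2.03) and Bmi1 by -0.46 (interval -1.05 to 0.13). The E3 ligases Ring1 and Rnf2, which carry the catalytic activity, differed by 0.24 (interval -0.91 to 1.38) and -0.15 (interval -0.82 to 0.51), and Cbx2, a chromodomain subunit, by 0.71 (interval -0.15 to 1.57). Over the 8 PRC1 genes the median difference was 0.47, with 5 above 0, against 0.01 over all tested genes, and over the 7 PRC2 genes it was -0.04.

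No H3 lysine 9 writer passed the test (limma), and none did so at an unadjusted p under 0.05. Ehmt2, which encodes G9a, differed by 0.45 (interval -0.27 to 1.17). Its partner Ehmt1 differed by -0.32 without overlap (interval -0.86 to 0.22) at its brightest probe. The other Ehmt1 probe differed by 0.26 with overlap (interval -1.70 to 2.23). Setdb1, an H3 lysine 9 methyltransferase that silences retroelements, differed by 0.11 (interval -0.51 to 0.73). Suv39h2, a heterochromatin methyltransferase, differed by 0.11 (interval -0.62 to 0.83) at its brightest probe, at 9.10, 10.07 and 9.54 in DCKO and 9.30, 9.63 and 9.47 in WT. Its other tested probes disagreed with each other, at 7.64, 5.99 and 5.23 in DCKO and 6.71, 7.87 and 7.74 in WT for the second (difference -1.15), and at 5.46, 5.97 and 5.50 in DCKO and 5.02, 4.96 and 4.91 in WT for the third. The third was not detected on any WT array and was at least 1.15-fold higher in DCKO.

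Of the H3 lysine 36 and H4 lysine 20 writers 3 were tested, and at their brightest probes all 3 had intervals within 1 log2 unit of 0. None passed the test (limma) or an unadjusted p under 0.05. Setd2, the H3 lysine 36 methyltransferase, differed by -0.02 (interval -0.53 to 0.49). Nsd1, which dimethylates H3 lysine 36, differed by 0.14 (interval -0.47 to 0.75), and its other tested probes by 0.24 and 0.003. Setd8, the H4 lysine 20 monomethyltransferase now named Kmt5a, differed by 0.26 (interval -0.32 to 0.84). Its other tested probes differed by -0.64 (interval -1.34 to 0.05) and 0.25 (interval -0.72 to 1.22), both with overlap.

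The other genes of histone methylation were read from lists of 74 further Polycomb subunits, writers, erasers and arginine methyltransferases, of which 64 were tested. A single gene passed the test, Kdm5d, which was lower in DCKO, and the median difference over the 64 was -0.15. None of 20 further Polycomb subunits, 10 H3 lysine 4 genes, 7 H3 lysine 9 genes, 5 H3 lysine 36 and H4 lysine 20 writers or 7 arginine methyltransferases was called (limma). At an unadjusted p under 0.05, 1 of these Polycomb subunits was lower, 1 of the H3 lysine 4 genes was higher and 1 lower, 1 of the arginine methyltransferases was higher and 1 lower, and no gene of the other 2 lists passed. Of the Hox and Cdkn2 genes, which PRC2 and PRC1 silence in many tissues, 4 of 40 with a named probe passed the detection filter, and none was called (limma) or had an unadjusted p under 0.05.

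Kdm5d is the Y-linked relative of Kdm5a and Kdm5b and was the only one of the 64 genes called. It was at 5.11, 4.87 and 4.79 in DCKO and 6.02, 6.15 and 6.00 in WT, not detected on any DCKO array and detected on all 3 WT arrays, at least 1.54-fold higher in WT (limma adjusted p = 0.0405). Kdm5d and Uty entered the test through the WT arrays alone, so their p-values support nothing by themselves. With no detection filter Kdm5d had an adjusted p of 0.0203. Without any single array the call was lost, with adjusted p from 0.0561 to 0.141. Uty, the Y-linked relative of Kdm6a, was at 5.38, 4.88 and 5.19 in DCKO and 5.66, 5.79 and 5.55 in WT, again detected on the WT arrays alone (at least 1.18-fold, adjusted p = 0.272). Eif2s3y, a Y-linked translation factor gene read after these values were seen, was at 4.88, 4.76 and 4.95 in DCKO and 7.64, 7.40 and 7.52 in WT at its dimmer probe, not detected in DCKO and at least 4.26-fold higher in WT (adjusted p = 0.00242). That probe also entered the test through the WT arrays alone, so its p supports nothing by itself. The brightest Eif2s3y probe was at 5.89, 5.94 and 5.50 in DCKO and 6.69, 7.42 and 7.61 in WT (adjusted p = 0.0538).

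None of the 3 tested X-linked demethylase genes passed the test (limma), and Kdm6a and Kdm5c lay higher in DCKO at their brightest probes whereas Phf8, which removes methylation of H3 lysine 9 and H4 lysine 20, overlapped with a difference of -1.40 (adjusted p = 0.371). Kdm6a, an H3 lysine 27 demethylase that escapes X inactivation, was at 9.73, 9.86 and 9.20 in DCKO and 7.75, 8.71 and 9.06 in WT, a difference of 1.08 without overlap (interval 0.14 to 2.03, adjusted p = 0.186). Its second probe differed by 0.86 and its dimmest tested probe by -1.33, both overlapping. Kdm5c, the X-linked partner of Kdm5d, was at 8.49, 9.23 and 8.07 in DCKO and 8.00, 7.71 and 7.71 in WT (difference 0.79, adjusted p = 0.254), and its second probe differed by 1.17, also without overlap (adjusted p = 0.165). Xist, the transcript of the inactive X, was detected on all 6 arrays at 10.98, 11.16 and 11.59 in DCKO and 10.81, 11.02 and 10.42 in WT (adjusted p = 0.38), and its other 3 probes differed by 0.07 to 0.76 (adjusted p = 0.188 to 0.92). The labels used here do not give the sex of the embryos, and sex and genotype cannot be told apart for these genes.

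**Figure D4:**
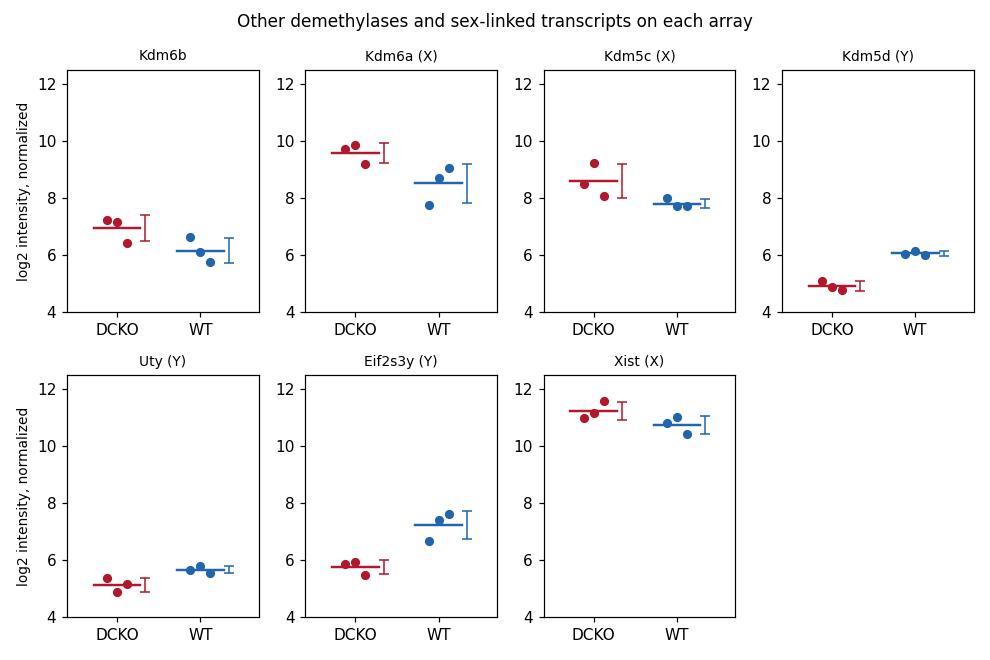
Normalized log2 intensity (y axis) of Kdm6b and of sex-linked genes, by the brightest probe on each array, DCKO left in red and WT right in blue, with points for arrays, a line for the mean and a bar for 1 SD (n = 3). The Y-linked genes Kdm5d, Uty and Eif2s3y all lie lower in DCKO with no overlap, and the X-linked genes Kdm6a and Kdm5c lie higher with no overlap.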

How the data were processed

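RNA amplified from laser-microdissected E10.5 tissue of 3 DCKO and 3 WT samples was hybridised to Illumina mouse bead arrays. The authors deposited, for each probe and array, the mean bead intensity without background subtraction, its bead standard error and number of beads, and a detection p-value from GenomeStudio, whose version is not given in the sources used here. They also deposited a processed intensity table, which the methods describe as cubic spline normalized and in which 25.3% of values lie below 0. The deposited intensity was background-corrected by the normexp model fitted from the detection p-values (offset 16), quantile normalized and put on a log2 scale, using the neqc function (limma 3.58.1, R 4.3.3). Probes entered the test when 3 or more of the 6 arrays detected them at p under 0.05, and DCKO was compared with WT by lmFit and eBayes with Benjamini-Hochberg adjustment over all 19552 tested probes, called at an adjusted p under 0.05. A gene was read by its tested probe with the highest mean over the 6 arrays. Bounds written as at least were set against the lowest detected value of each array, or the probe's own value where that was higher. Summed levels add linear normalized intensity. Probes were named from the platform annotation, which gave 1 gene for 34885 of 45281 probes, and 10378 were left unnamed. Probe brightness depends on the probe, so levels were compared between genotypes and never between genes. The number of arrays limits the precision.

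Values on every array are given for each member with a called probe, each whose groups did not overlap at a log2 difference of at least 1, Ezh1, Ezh2, Kdm6b, Kdm6a, members whose probes differed by at least 1, and called genes of the other lists. Alternatives changed the background correction, scaling, detection filter, moderation, pairing, probe choice and threshold. Phc2, Kmt2d, Wdr5, Rbbp7, Kdm5c, Uty, Eif2s3y and Xist were added after their values were seen. The members and lists were chosen with earlier results of these data known. The test was checked on simulated data with independent noise on each array, which does not cover RNA pooled within a genotype or mixed cell types.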

Additional observations from a re-analysis of the deposited data

How the results depend on the processing

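Alternatives changed the background correction, the scaling, the detection filter, the moderation, the pairing, the probe read for a gene and the threshold, and left out each array in turn. Ash2l stayed higher in DCKO under all 14 settings that gave it a value, with log2 differences of 1.28 to 1.69, and was called in 10 of them. The count of members called, 1, became 3 with normexp on all probes, with no background correction and at an adjusted p under 0.10 (Ash2l, Kdm3a and Kdm5b), 2 with a detection p under 0.01 and with trend and robust moderation (Ash2l and Kdm5b), 2 when the probe with the smallest p stood for a gene (Ash2l and Rbbp4), and 0 when a gene's probes were averaged. Member probes called, 2, became 4 with normexp on all probes and 1 with no detection filter. The count in the wider lists, 1, became 0 with normexp on all probes and with a detection p under 0.01, which Kdm5d did not reach. With no background correction that count stayed 1, but the gene called was Smyd2, and Kdm5d lost its call (adjusted p = 0.129). Of the cell cycle genes, none of which was called, 1 (Mcm6) was called higher with normexp on all probes, with no background correction and with trend and robust moderation. All tested probes called, 895, became 1760 at an adjusted p under 0.10. At that threshold, applied to these lists after seeing the data, 2 genes of the wider lists (Kdm5d and Smyd2, both lower) and 1 cell cycle gene (Mcm6, higher) were called.

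With the replicate number as a block, 205 probes were called, and no member, member probe or gene of the wider lists was. Same-numbered DCKO and WT arrays deviated from their group means with correlations of 0.0332, 0.0325 and 0.0105, below the 0.1 taken to show pairing, although each array correlated best with its own number.

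Leaving out single arrays gave 229 to 620 probes called in all, 0 to 1 members, 0 to 2 member probes, 0 to 0 genes of the wider lists and 0 to 0 cell cycle genes. Each count of members of 0 came from leaving out a WT array. Values near 0 changed sign without passing the test. Kdm5a was at 0.050 with 75th percentile scaling, 0.13 without DCKO replicate 1 and 0.12 without WT replicate 1. The brightest Ep300 probe was at 0.070 without DCKO replicate 1, 0.38 without WT replicate 1 and 0.20 without WT replicate 2, and Suv39h2 at -0.15 without DCKO replicate 2. Over the arrays left out, Kdm5a ranged between -0.19 and 0.13, this Ep300 probe between -0.67 and 0.38 and Suv39h2 between -0.15 and 0.34. The cause of these changes was not tested.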
